A study of Mus musculus with 20 samples.

Results

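The abdominal aorta of wild type mice given saline was profiled here as a resting reference, on its own and without a comparison of groups. The 5 libraries are those whose group labels read WT+NS1 to WT+NS5, out of 20 libraries in the series. Each library comes from the abdominal aorta of a C57BL/6 mouse that was wild type for Rab22a, a small GTPase of endosomal membrane traffic, and that received saline for 14 days. The other 15 libraries hold Rab22a knockout mice or mice given angiotensin II, and were not used. Ribosomal RNA was removed from total RNA and no poly(A) selection is described, so transcripts with and without a poly(A) tail could be recovered. The replicate numbers of the labels are taken here as 5 separate mice. The labels used here do not say how much perivascular tissue was removed or give an age or sex.

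An elastic artery such as the aorta has an inner endothelium, a medial layer of contractile smooth muscle between elastic sheets, and an outer adventitia of fibroblasts, nerve fibres, small vessels and immune cells. It lies in perivascular adipose tissue, next to sympathetic ganglia, lymph nodes, the adrenal glands and muscles of the back. RNA of a whole dissected vessel sums over all of these cells, so that more cells of a type and more RNA per cell cannot be told apart in any value below.

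Values are FPKM, a read count divided by transcript length and by the size of the library, and they were summed over the transcripts of each gene. Values of the 5 libraries are listed in the order of replicates 1 to 5, and ± gives the SD (n = 5) throughout. The libraries implied totals of 71200000 to 77100000 reads, and the median gene at 1 FPKM or more held 1312 to 1588 reads per library. Trimmed-mean scaling factors would move log2 levels by -0.19 in replicate 3 and by 0.26 in replicate 5, the 2 extremes. Values are given without them, and a library is named as highest or lowest for a gene or list only where that holds with them too, unless said otherwise. A total of 14213 genes reached a mean of 1 FPKM, and 12771 of them were nuclear protein-coding genes, out of 20815 of that class. In single libraries the number of genes at 1 FPKM or more ran from 13342 to 14255. Of the nuclear protein-coding genes 11218 reached 1 FPKM in every library, 7225 in none, and 863 were listed at 0 in all of them.

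Nuclear protein-coding genes held 80.01 ± 1.89 percent of the FPKM sum, pseudogenes 9.51 ± 1.298 percent and mitochondrial genes 7.83 ± 1.25 percent. Immunoglobulin segments held 1.03 ± 0.515 percent, small RNAs 0.8603 ± 0.117 percent, long noncoding RNAs 0.716 ± 0.0887 percent and T cell receptor segments 0.0445 ± 0.0247 percent. Replicate 2 had the lowest protein-coding share, 76.8 percent against 80.2 to 81.5 percent in the others, and the highest mitochondrial and pseudogene shares. FPKM divides by length, so short transcripts weigh more in these shares than in the reads. By reads recovered from the FPKM values, protein-coding genes held 90.3 percent, mitochondrial genes 5.28 percent and pseudogenes 3.37 percent.

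**Figure D1:**
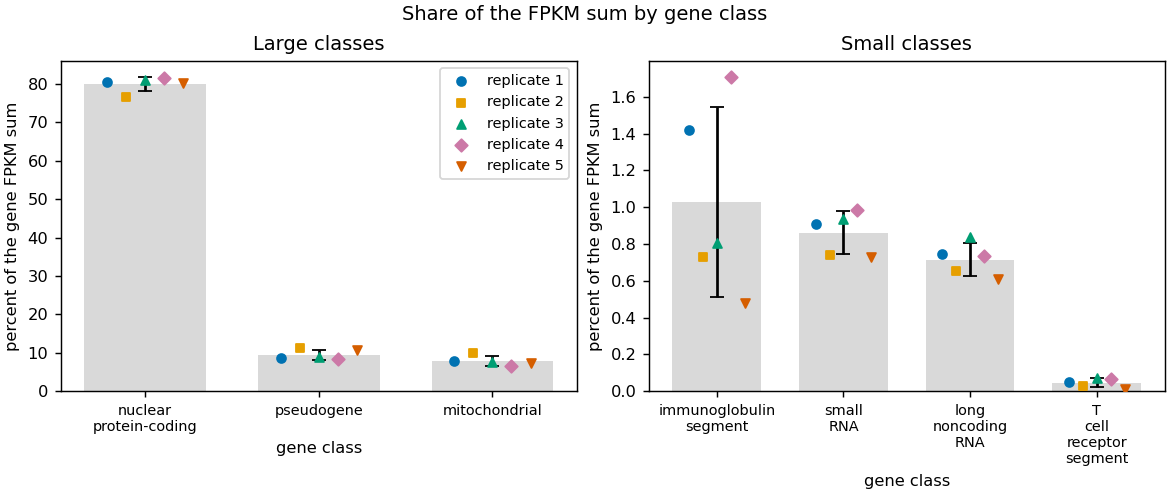
Share of the gene FPKM sum, in percent, held by each gene class. Bars give the mean, error bars the SD over 5 libraries and symbols the single libraries, and the 2 panels have different vertical scales. Replicate 2 lies lowest in the protein-coding class at 76.8 percent, and immunoglobulin segments range from 0.478 percent in replicate 5 to 1.71 percent in replicate 4.

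The pseudogene share came largely from 1 stretch of nuclear DNA copied from the mitochondrial genome. Nuclear insertions of mitochondrial DNA are common in mammals, and a recent one can match its source base for base. The 5 annotated pseudogenes of it examined here lie on the minus strand of chromosome 1 from 24612775 to 24616197 (mm10). How far the insertion extends beyond them was not tested. Gm28661 copies mt-Co2, a subunit gene of cytochrome c oxidase, over all 681 bases. Gm10925 copies mt-Atp6, a subunit gene of the ATP synthase, over all 678 bases, and Gm28437 copies mt-Co3, another cytochrome c oxidase gene, over all 783 bases. The first 100 bases of these 3 pseudogenes, 5′ to 3′, are shown because the same letters open the mitochondrial gene, so that a read from them fits both places. They come from the transcripts of GENCODE release M21.
Gm28661, identical to mt-Co2: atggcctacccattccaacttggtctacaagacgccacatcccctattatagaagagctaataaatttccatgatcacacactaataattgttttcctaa
Gm10925, identical to mt-Atp6: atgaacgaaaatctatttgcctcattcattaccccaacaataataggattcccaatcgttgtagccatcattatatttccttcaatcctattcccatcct
Gm28437, identical to mt-Co3: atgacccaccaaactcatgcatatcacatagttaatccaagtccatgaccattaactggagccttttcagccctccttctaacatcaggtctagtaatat
In Gm29216 a run of 479 bases equals mt-Co1, and in Gm28438 a run of 342 bases equals mt-Nd3.

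The deposited values of copy and source were alike in some pairs and far apart in others. Gm28661 stood at 6993, 10617, 6888, 6009.8 and 9746 FPKM. mt-Co2 stood at 6892, 10513, 6799, 6045 and 9695 FPKM, nearly the same level in every library. Gm28438 stood at 1070, 1865, 995, 895 and 1672 FPKM. Its source mt-Nd3 was close to it in every library, with 1127, 1931, 1041, 937 and 1729 FPKM. Gm10925 stood at 6816, 10590.5, 7007, 5996 and 8869 FPKM. Its mitochondrial source mt-Atp6 was listed at 0.118, 1395, 0.1195, 0.114 and 1.49 FPKM, so that only replicate 2 gave the gene a level above a few FPKM. For Gm28437 the mean was 6854 ± 1588 FPKM, while mt-Co3 was listed at 0.943, 68.5, 0.104, 0.116 and 0.117 FPKM. mt-Co1, with 16837 ± 3980.3 FPKM the highest of all genes, stood above its partial copy Gm29216 with 4192 ± 963 FPKM. How reads that fit several places were handled is not given in the sources used here, so the levels of identical copies are uncertain. With the 5 pseudogenes counted as mitochondrial, the mitochondrial share was 14.2 percent.

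Mitochondrial genes other than the sources named for these pseudogenes also had isolated values. Whether the insertion holds copies of them between or beside the annotated pseudogenes was not tested. mt-Nd5, a subunit gene of respiratory complex I, stood at 2756, 0.654, 2507, 2536 and 3290.1 FPKM and was near 0 in replicate 2 alone. mt-Nd4, of the same complex, showed 1706, 0.173, 0.158, 0.169 and 0.172 FPKM, high in replicate 1 and near 0 in the rest. mt-Cytb, the mitochondrial gene of complex III, had 3.06 ± 1.74 FPKM and mt-Atp8 0.211 ± 0.117 FPKM. The mitochondrial ribosomal RNAs mt-Rnr2 and mt-Rnr1 had 3508 ± 1065 and 1815 ± 832 FPKM after ribosomal RNA depletion. Most mitochondrial mRNAs are cut from shared long transcripts, and the cause of the gaps between neighbouring genes was not tested.

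Among small RNA genes, 33 reached 1 FPKM. Of these, 17 overlap an exon of a protein-coding gene and held 86.9 percent of the small RNA FPKM. Gm22133, inside Ftl1, had 1348 ± 304 FPKM, Gm26377, inside Eef1a1, had 881 ± 122 FPKM, and Gm47302, inside Col3a1, had 530.5 ± 148 FPKM. Their hosts are abundant mRNAs of these libraries, and reads of host and small RNA cannot be told apart in these values. Of RNAs with a gene of their own, the signal recognition particle RNAs Rn7s1 and Rn7s2 had 62.4 ± 33.9 and 56.01 ± 30.8 FPKM. Rn7sk, which holds an elongation factor inactive, had 10.3 ± 7.43 FPKM and Rmrp, the RNA of a processing ribonuclease, 3.76 ± 3.596 FPKM. Rpph1, the RNA of ribonuclease P, had 8.68 ± 7.16 FPKM. In all 5 replicate 1 was the highest library, as in Rpph1 with 20.98, 8.84, 5.74, 4.23 and 3.63 FPKM.

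Of the genes classed as long noncoding RNAs, 491 reached 1 FPKM. The class follows the annotated gene type, which placed Cct6a, a chaperonin subunit gene, and Ifi30, a lysosomal reductase gene, in it. They had 66.4 ± 10.8 and 60.8 ± 32.0 FPKM. Gas5, host of several small nucleolar RNAs, stood at 78.7, 59.7, 106, 83.99 and 63.999 FPKM. Malat1, a nuclear speckle RNA, stood at 65.4, 51.9, 78.6, 67.6 and 40.02 FPKM. Neat1, the scaffold of paraspeckles, stood at 20.8, 15.1, 25.9, 21.02 and 13.98 FPKM. Gas5, Malat1 and Neat1 were each highest in replicate 3. Gm26917 led this class with 134, 117, 158, 175 and 0.407 FPKM, near 0 in replicate 5 alone. H19, an imprinted RNA that is also made in skeletal muscle, stood at 2.47, 15.9, 1.39, 1.102 and 74.9 FPKM and was high in replicates 5 and 2. It moved with skeletal muscle mRNAs, which were high in the same libraries. Carmn, a smooth muscle RNA, was low, at 0.333, 0.549, 1.52, 0.5104 and 0.836 FPKM.

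Genes of fat held more of the places near the top than genes of the vessel wall. Cfd, or adipsin, a complement protease secreted by adipocytes, led with 4214, 3544, 4773, 4729.9 and 5251 FPKM. Fabp4, the fatty acid carrier of adipocytes and capillary endothelium, followed with 3364, 4151, 3229.9, 3631 and 4522 FPKM. Both lay in a narrow range, with a highest value under 1.5 times the lowest. Acta2, the actin of smooth muscle and the classical marker of the media, stood in rank 8 with 1966, 1446, 1781, 1300.3 and 2088 FPKM, and in rank 6 when genes were ranked by reads. Tagln, an actin-binding protein of smooth muscle, stood in rank 21 with 1171, 889, 1103, 881 and 1375 FPKM. Both were lowest in replicate 4 and highest in replicate 5, and Acta2 exceeded Tagln in every library.

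Lipogenic enzymes filled further places near the top and shared 1 low library. Scd1, which desaturates fatty acids, stood at 2636, 5149, 1032, 2431 and 4237 FPKM. Fasn, the fatty acid synthase, stood at 1828, 2402, 399.8, 2359.8 and 2254 FPKM. Acly, which makes cytosolic acetyl-CoA, stood at 826, 1516, 200.2, 1704 and 1494 FPKM. Replicate 3 was the lowest library for each of them. Thrsp, a regulator of lipid synthesis, stood at 1474, 1894, 482, 2132 and 2223 FPKM. Me1, a source of NADPH, stood at 309, 556, 94.8, 1062 and 693 FPKM. Gpd1, which makes the glycerol backbone of fat, stood at 1611, 2131, 714, 1245 and 2010.3 FPKM. Replicate 3 was the lowest for these as well. By contrast Dgat2, which joins the last fatty acid to triglyceride, lay in a narrower range, between 628 and 816 FPKM. It was lowest in replicate 2 as deposited and in replicate 3 after scaling. By reads Fasn, Scd1, Acly and Gpd1 were the 4 leading protein-coding genes. The 13 genes of fatty acid synthesis, a list added after the values were seen, held 3.11 ± 1.26 percent of the protein-coding FPKM.

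Blood, iron storage and translation made up much of the rest of the top 30. The haemoglobin genes Hba-a1, Hba-a2 and Hbb-bs had 2824 ± 1076, 1501 ± 1063 and 1329 ± 380.0 FPKM. Hba-a1 and Hba-a2 are near-identical copies, so the split between them is uncertain. The ferritin genes Fth1 and Ftl1 had 2235 ± 189 and 1394 ± 404 FPKM. The elongation factors Eef1a1 and Eef2 had 1323 ± 427 and 909 ± 138 FPKM, and the ribosomal protein genes Rplp1 and Rpl13 1258 ± 149.9 and 852 ± 153 FPKM. Nuclear genes of mitochondrial energy metabolism were also present, with Cox6a1 at 1569 ± 442, Atp5b at 1459 ± 387 and Cox4i1 at 956 ± 256 FPKM. All 3 were lowest in replicate 4 and high in replicates 2 and 5. Cd74, the invariant chain of antigen presentation, stood at 1001, 619.9, 1001, 1619.7 and 369 FPKM, lowest in replicate 5 and highest in replicate 4. The 10 most abundant protein-coding genes held 7.16 percent of the protein-coding FPKM, the 100 most abundant 25.2 percent and the 1000 most abundant 60.6 percent.

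**Figure D2:**
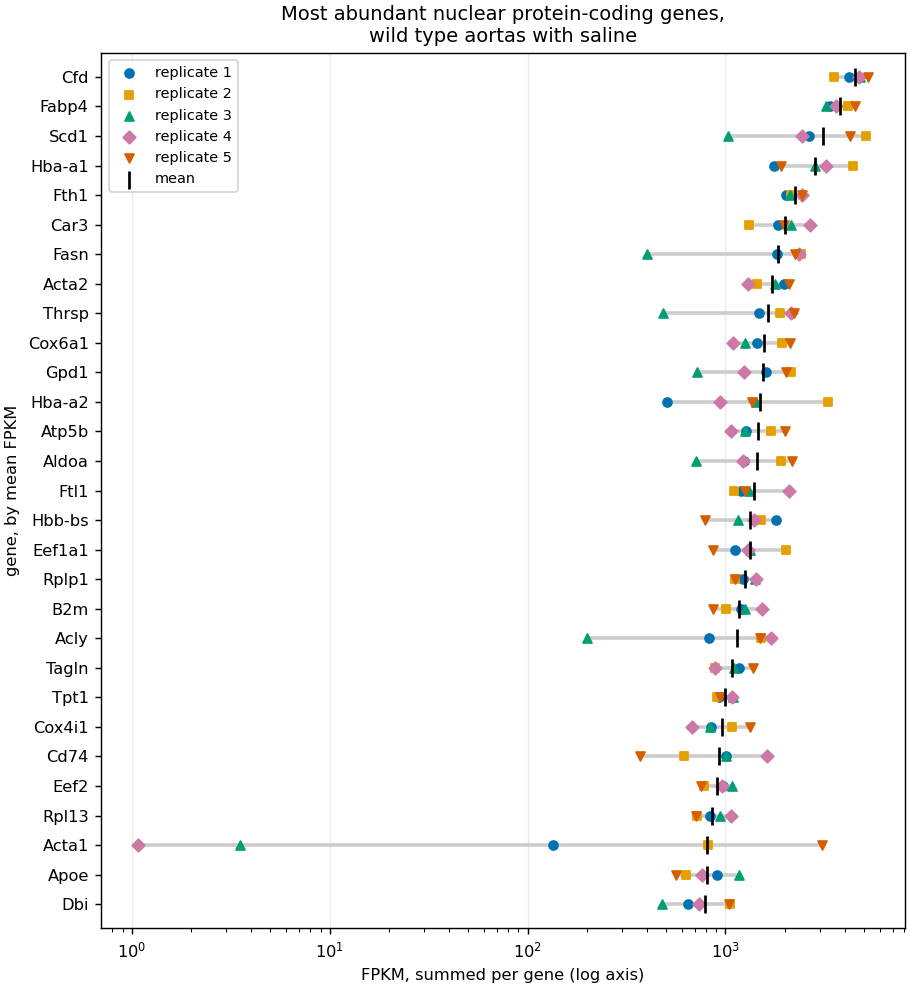
FPKM of nuclear protein-coding genes with the highest means, on a log axis, for each of the 5 libraries (symbols) with their mean (black bar) and range (grey line). Some genes stay within a narrow range, such as Fth1 with 2031 to 2446 FPKM, and others range more widely, such as Scd1 with 1032 to 5149 FPKM. Acta1 runs from 1.08 to 3084 FPKM, and Fasn, Thrsp and Acly have their low value in replicate 3.

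Cell type content was described with marker lists, each summarised as the mean of log2(FPKM + 1) over its genes. The lists were chosen with earlier results of these data known, so their levels are no check of the labelled tissue. The contractile smooth muscle list of 26 genes had a mean level of 6.49 ± 0.25, against 3.06 for the median of the genes at 1 FPKM or more, and all 26 genes reached 1 FPKM. Its levels were 6.54, 6.39, 6.45, 6.18 and 6.87 in replicates 1 to 5, lowest in replicate 4 and highest in replicate 5. Myl9, the regulatory light chain of smooth muscle myosin, stood at 759, 629.6, 719, 652 and 949.6 FPKM. Myh11, its heavy chain and the most specific marker of the list, stood at 401, 299, 336, 311 and 349.8 FPKM. Its highest library exceeded its lowest by less than 1.5 times. Csrp1, a cytoskeletal LIM protein of smooth muscle, had 441 ± 64.3 FPKM. Cnn1, or calponin, had 129.6 ± 21.3 FPKM and Smtn, or smoothelin, 109 ± 18.03 FPKM. Mylk, the kinase that starts contraction, stood at 47.6, 47.3, 9.54, 56.7 and 72.2 FPKM, with an isolated low value in replicate 3. Pln, the inhibitor of the calcium pump, was the lowest of the list with 2.33 ± 0.469 FPKM.

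Some members of this list are also made by skeletal muscle. Des, the intermediate filament of muscle, stood at 65.4, 129, 97.9, 80.9 and 363 FPKM. Tpm2, a tropomyosin, stood at 268, 246, 198, 276 and 597 FPKM. Tpm1, another tropomyosin, stood at 212, 209, 229, 183 and 484 FPKM. In all 3 replicate 5, the library with the most skeletal muscle RNA, was far above the other 4. The part of that RNA in their values was not tested. The leading transcript of Tpm1, ENSMUST00000113705, held between 20.2 and 81.4 percent of the gene's FPKM, and that of Tpm2, ENSMUST00000107914, between 43.4 and 95.01 percent. By contrast the leading transcript of Myh11 held 91.2 to 94.8 percent and Acta2 has a single transcript. Vim, the intermediate filament of mesenchymal cells, stood at 270.1, 302, 359, 39.5 and 305 FPKM, with an isolated low value in replicate 4.

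Transcription factors of smooth muscle were present at lower levels, with a list level of 2.74 ± 0.21 over 20 genes, 19 of which reached 1 FPKM. Srf, the factor that binds the promoters of contractile genes, stood at 14.7, 11.96, 16.7, 15.8 and 15.7 FPKM. Its coactivators Mrtfa and Mrtfb had 12.2 ± 4.33 and 6.92 ± 1.65 FPKM, whereas Myocd, the muscle-specific coactivator, had 0.446 ± 0.293 FPKM. Klf4, a repressor of the contractile programme that endothelium also makes, stood at 20.5, 19.7, 20.4, 16.02 and 19.3 FPKM. Gata6 had 6.72 ± 1.21 FPKM and Mef2a 16.97 ± 1.99 FPKM. Hand2, a factor of smooth muscle and of sympathetic neurons, stood at 24.4, 16.8, 18.7, 7.61 and 10.1 FPKM, highest in replicate 1 and lowest in replicate 4.

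The endothelium list of 20 genes had a level of 4.52 ± 0.19 and had the lowest median SD of the 19 marker lists, 0.19 on the log2 scale. Cdh5, the cadherin of endothelial junctions, stood at 61.1, 59.5, 75.4, 59.1 and 57.2 FPKM. Kdr, the main VEGF receptor, stood at 27.6, 29.8, 31.9, 28.9 and 24.01 FPKM. The highest library exceeded the lowest by 1.32 times in Cdh5 and by 1.33 times in Kdr. Cldn5, a tight junction protein, had 92.8 ± 17.2 FPKM and Vwf, the clotting factor carrier, 55.6 ± 14.8 FPKM. Nos3, which makes nitric oxide, stood at 17.4, 10.03, 18.5, 18.3 and 20.5 FPKM. Pecam1, an adhesion protein of endothelial junctions, stood at 73.4, 31.3, 58.7, 63.4 and 62.6 FPKM. Both were lowest in replicate 2. All 20 genes reached 1 FPKM.

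Fibroblast and matrix genes stood above endothelium genes. The 2 lists share members, such as Dcn and the collagens. The fibroblast list of 18 genes had a level of 6.07 ± 0.20 and the matrix list of 44 genes 5.19 ± 0.19. Dcn, a small proteoglycan, stood at 640.2, 489, 939, 500.1 and 510.0 FPKM. Col3a1, a fibrillar collagen, stood at 239, 184, 327, 210.2 and 249 FPKM. Eln, the elastin of the medial sheets, stood at 139, 112, 158, 133 and 182 FPKM. Mgp, an inhibitor of calcification, had 473 ± 70.5 FPKM, Bgn, or biglycan, 406 ± 46.3 FPKM, and the basement membrane collagens Col4a1 and Col4a2 128 ± 9.73 and 110.4 ± 13.4 FPKM. Replicate 3 was the highest library for both lists as deposited, and replicate 5 after scaling. Dcn was highest in replicate 3 either way.

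Matrix genes also held isolated values. Col1a1 and Col1a2 encode the chains of the same type I collagen. Col1a1 stood at 265, 143, 313, 154 and 220.4 FPKM. Col1a2 stood at 12.1, 179, 11.96, 4.01 and 13.6 FPKM, so that only replicate 2 gave the chains like levels. Sparc, a matrix glycoprotein, stood at 751, 59.4, 990.0, 609 and 827 FPKM, with its only low value in replicate 2. Without Acan, Col1a2 and Sparc, the 3 of 44 genes that have such a jump, the matrix list lay between 5.01 and 5.49. The cause of these jumps was not tested.

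Mural cell genes were present in every library, and all 9 of the pericyte list reached 1 FPKM. Rgs5, a marker of pericytes and of arterial smooth muscle, stood at 263, 213, 317, 365 and 280.2 FPKM. Notch3, the Notch receptor of mural cells, stood at 17.7, 13.6, 21.9, 17.4 and 13.6 FPKM. Abcc9, a subunit of a vascular potassium channel that striated muscle also makes, stood at 1.28, 5.63, 1.18, 4.69 and 16.7 FPKM. The list level was 3.66, 3.72, 3.67, 3.68 and 4.08, highest in replicate 5, where Abcc9 was highest too.

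The macrophage list was lowest in replicate 5, with levels of 4.18, 4.07, 4.38, 4.15 and 3.65, and its span of 0.73 became 0.34 after scaling. Not all of its genes were lowest there. Lyz2, the lysozyme of myeloid cells, stood at 638, 571, 598, 736 and 261 FPKM. C1qa, a complement subunit made by tissue macrophages, stood at 136, 113, 132, 111 and 78.997 FPKM. Lyve1, shared by lymphatic endothelium and resident macrophages, stood at 49.1, 31.4, 56.6, 30.8 and 22.5 FPKM. Prox1, the defining factor of lymphatic endothelium, had 0.0632 ± 0.0565 FPKM, while its other listed markers Flt4 and Reln had 10.8 ± 4.28 and 8.02 ± 3.38 FPKM.

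**Figure D3:**
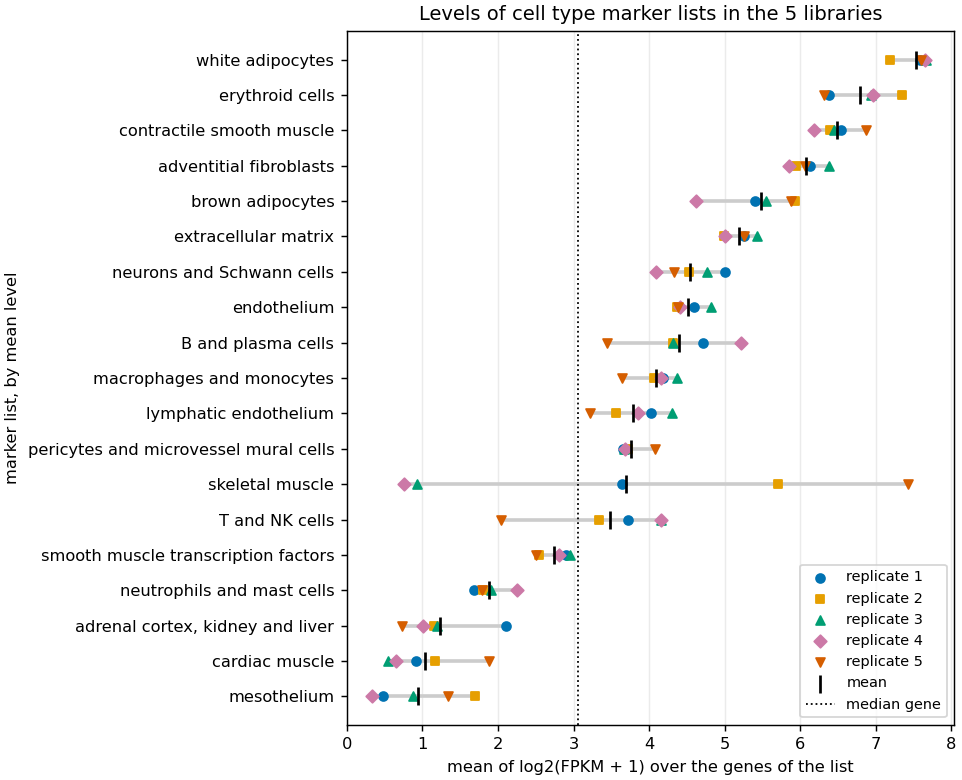
Level of 19 marker lists, the mean of log2(FPKM + 1) over the genes of a list, in each of the 5 libraries (symbols) with the mean (black bar) and range (grey line). The dotted line is the median gene at 3.06, and 14 lists lie above it. Skeletal muscle spans 6.67 and T and NK cells 2.12 (1.86 after scaling), while endothelium spans 0.46.

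Fat genes stood above vessel wall genes in these values, though lists of different genes give no proportion of cells. The white adipocyte list of 15 genes had the highest level of the 19 marker lists, 7.54 ± 0.20, with 7.58, 7.19, 7.67, 7.65 and 7.597 in the single libraries. Adipoq, the adipokine adiponectin, stood at 470.5, 471, 609, 654 and 603 FPKM. Cidec, a lipid droplet protein, stood at 439, 293, 649, 495 and 396 FPKM. Lpl, the lipase that frees fatty acids from blood lipids, stood at 187, 13.2, 152, 218 and 165 FPKM, with its only low value in replicate 2. Without Lpl the level of replicate 2 was 7.43 and the others lay between 7.59 and 7.70. The list held 3.71 ± 0.338 percent of the protein-coding FPKM, against 1.94 ± 0.329 percent for contractile smooth muscle. Lep, or leptin, stood at 7.34, 7.84, 2.28, 18.8 and 7.23 FPKM, highest in replicate 4 and lowest in replicate 3.

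Brown adipocyte genes were also abundant, and 1 mouse stood low. Ucp1, the uncoupling protein that makes brown fat produce heat, stood at 574, 623, 563, 92.5 and 584 FPKM, with replicate 4 below the others. Cidea, a lipid droplet protein of brown fat, stood at 431, 715, 491, 371 and 658 FPKM. Cox8b, a cytochrome c oxidase subunit of brown fat and muscle, stood at 315, 561, 297, 198 and 611 FPKM. Replicate 4 was again the lowest library for both. The list level was 5.396, 5.93, 5.55, 4.62 and 5.87, while the white adipocyte list in replicate 4 was not low. Fabp3, Cox7a1 and Cpt1b, which striated muscle makes as well, were highest in replicate 5, as Fabp3 with 72.7, 196, 154, 10.7 and 463 FPKM. Adrb3, the adipocyte receptor for noradrenaline, ran the other way with 12.9, 22.7, 19.6, 35.5 and 9.87 FPKM, highest in replicate 4.

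Skeletal muscle genes differed more between these mice than any other of the 19 marker lists. Acta1, the actin of skeletal muscle, stood at 134, 813, 3.53, 1.08 and 3084 FPKM. Ckm, the muscle creatine kinase, stood at 49.4, 218, 1.22, 0.646 and 708 FPKM. Myh1, a fast myosin heavy chain, stood at 5.97, 83.2, 0, 0 and 346 FPKM. In each of them replicate 5 was the highest, replicate 2 next and replicate 1 after it, and replicates 3 and 4 were at or near 0. The list of 20 genes had levels of 3.63, 5.71, 0.92, 0.75 and 7.42, a span of 6.67 on the log2 scale. Myh7, the slow myosin, stood at 1.35, 33.7, 0.0871, 0.0562 and 111 FPKM. Pvalb, a calcium buffer of fast fibres, stood at 37.6, 79.9, 0.539, 0.549 and 158 FPKM. In replicate 5 the list held 2.75 percent of the protein-coding FPKM. Myh7 and Myl2 occur in slow skeletal fibres and in the heart, while the atrial light chain Myl7 was listed at 0 in every library and the cardiac genes Myh6 and Nppa had 0.286 ± 0.376 and 0.08299 ± 0.103 FPKM. Actc1, the cardiac actin, stood at 6.76, 5.98, 7.07, 7.31 and 12.4 FPKM and the cardiac troponin Tnnt2 had 2.23 ± 1.498 FPKM. The part of skeletal muscle RNA in the other values of replicates 1, 2 and 5 was not tested.

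T and NK cell genes had the next widest span of the 19 marker lists. In this list of 22 genes the levels were 3.72, 3.34, 4.16, 4.16 and 2.03, with replicate 5 below the others, and the span of 2.12 became 1.86 after scaling. Cd3e, a chain of the T cell receptor complex, stood at 15.04, 12.2, 19.5, 25.4 and 2.98 FPKM. Ccr7, the receptor that guides T cells to lymph nodes, stood at 21.03, 17.4, 29.8, 37.1 and 4.82 FPKM. Cd4 and Cd8b1, of helper and cytotoxic T cells, had 19.9998 ± 10.1 and 19.7 ± 12.1 FPKM. Among B and plasma cell genes Ms4a1, or CD20, stood at 20.4, 18.1, 23.8, 53.8 and 6.79 FPKM. Jchain, which joins secreted antibodies, stood at 238, 107, 123, 249 and 28.8 FPKM. Both were highest in replicate 4 and lowest in replicate 5. Igkc, the constant region of the kappa light chain, stood at 897, 539, 601, 1265 and 369 FPKM. Igha, of the IgA class, stood at 872, 197, 277, 544 and 180.1 FPKM. Replicate 1 was the highest library for Igha, and replicate 4 for Igkc.

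Genes of lymph node stroma were low in the same library as the lymphocyte genes. Ccl21a, a chemokine that draws Ccr7-bearing cells, stood at 251, 169.7, 282, 283 and 54.9 FPKM. It has near-identical copies, so its level is uncertain. Glycam1, a sulphated ligand made by high endothelial venules, stood at 149, 169, 175, 159 and 41.6 FPKM. Cxcl13, which draws B cells into follicles, stood at 37.5, 29.6, 35.9, 69.4 and 11.6 FPKM. All 3 were lowest in replicate 5. This list of 10 genes, added after the values were seen, had levels of 3.82, 3.72, 4.11, 4.18 and 2.71. Cell cycle genes were low throughout, with a list level of 1.89 ± 0.59, and highest in replicate 4, where Mki67, a marker of dividing cells, stood at 8.45 FPKM against 0.472 to 2.17 FPKM elsewhere. These values cannot tell lymphocytes inside the wall from those of nodes next to it.

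Genes of noradrenergic neurons were present in every library. Th, which starts the synthesis of noradrenaline, stood at 168, 110.2, 116, 58.5 and 79.5 FPKM. Dbh, which completes it, stood at 222, 142, 155, 70.01 and 95.6 FPKM. Npy, a cotransmitter of sympathetic nerves, stood at 298, 201, 247, 118 and 159 FPKM. Prph, or peripherin, an intermediate filament of peripheral neurons, had 104 ± 42.4 FPKM. In Th, Dbh, Npy and Prph replicate 1 was the highest library and replicate 4 the lowest, as in Hand2. Pnmt, which turns noradrenaline into adrenaline, had 0.472 ± 0.5203 FPKM.

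Adrenal cortex genes marked a single mouse. Star, which brings cholesterol into mitochondria for steroid synthesis, stood at 15.96, 1.75, 1.33, 0.793 and 0.969 FPKM. Cyp21a1, a hydroxylase of steroid synthesis, stood at 15.3, 0.496, 0.163, 0.2096 and 0.0192 FPKM. Cyp11b1, the enzyme that completes corticosterone, stood at 6.67, 0.0709, 0.0171, 0 and 0.0249 FPKM. Replicate 1 was the only library with more than a few FPKM of these genes. Cyp2e1, placed in the same list as a liver gene, stood at 663, 283, 1063, 415 and 316 FPKM, while the liver genes Alb and Ttr had 3.79 ± 2.72 and 0.498 ± 0.161 FPKM. Mesothelium genes were low, with Msln, or mesothelin, at 0.343, 4.85, 0.802, 0.288 and 3.54 FPKM, highest in replicates 2 and 5.

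Receptors of vasoactive hormones and transmitters were measured at modest levels. Of 40 genes 32 reached 1 FPKM, and the list level ranged from 2.24 to 2.48. The sphingosine phosphate receptor S1pr1 led with 47.6, 39.1, 62.9, 56.6 and 32.9 FPKM. The prostaglandin receptor Ptger3 followed with 34.1, 47.4, 30.3, 46.7 and 48.9 FPKM. Agtr1a, the main angiotensin II receptor (chr13:30336441-30382867, plus strand, mm10), stood at 16.5, 9.05, 11.04, 6.69 and 10.2 FPKM, highest in replicate 1 and lowest in replicate 4. Its paralog Agtr1b had 1.09 ± 0.3005 FPKM, and the type 2 receptor Agtr2 0.245 ± 0.174 FPKM, below the 1 FPKM used for detection. Adra1d, an alpha 1 receptor for noradrenaline, had 7.48 ± 1.502 FPKM.

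Other parts of the renin angiotensin system were present as well. Ace, the angiotensin-converting enzyme, stood at 63.5, 44.7, 54.4, 41.1 and 50.1 FPKM. Agt, the precursor angiotensinogen, stood at 22.1, 14.7, 21.2, 9.84 and 19.9 FPKM. Both were lowest in replicate 4. Cma1, a mast cell chymase that can also form angiotensin II, had 10.3 ± 2.89 FPKM. Ren1, or renin, was below detection, with 0.516 ± 0.148 FPKM, and Mas1, the receptor of angiotensin 1-7, had 0.0813 ± 0.0768 FPKM. Rab22a, the gene removed in the other genotype of the series (chr2:173659760-173707343, plus strand, mm10), stood at 10.3, 8.63, 10.4, 2.82 and 8.57 FPKM, with replicate 4 below the others.

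Genes that act on vessel tone below the receptors had even list levels, which spanned 0.15 for nitric oxide and cGMP and 0.16 for ion channels and calcium handling, and 0.23 and 0.34 after scaling. The guanylate cyclase subunits Gucy1a1 and Gucy1b1 had 26.2 ± 5.73 and 20.7 ± 4.42 FPKM, and Prkg1, the kinase that cGMP activates, 4.44 ± 0.793 FPKM. Nos2, the inducible enzyme of inflammation, stood at 1.54, 1.84, 1.68, 1.74 and 1.26 FPKM. Among 39 ion channel and calcium handling genes 33 reached 1 FPKM. Atp2a2, the calcium pump of the sarcoplasmic reticulum, stood at 76.3, 93.9, 73.6, 56.7 and 157 FPKM and was highest in replicate 5. Kcnmb1, the smooth muscle subunit of the large conductance potassium channel, had 11.1 ± 2.01 FPKM, while Kcnma1, its pore, had 1.804 ± 0.153 FPKM. Cacna1c, the pore of the L-type calcium channel, had 1.38 ± 0.2402 FPKM.

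Positional identity was read from the Hox genes, whose 4 clusters are expressed in order along the body axis, with high group numbers towards the tail. Of 38 Hox genes matched, 20 reached 1 FPKM. The highest was Hoxc8 with 13.7, 9.104, 8.87, 10.2 and 12.9 FPKM. Next came Hoxa7 with 14.7, 2.002, 12.9, 10.03 and 3.39995 FPKM. Hoxc10 had 6.91, 4.904, 8.75, 11.5 and 5.995 FPKM. Hoxa7 was lower in replicates 2 and 5 than in the other 3, and the ranges of all 3 overlapped, so their order does not hold beyond the spread between mice. Hoxc6 had 6.76 ± 1.195, Hoxa9 6.35 ± 1.96, Hoxb7 6.21 ± 0.7502, Hoxb6 4.75 ± 0.852, Hoxd8 4.62 ± 1.25, Hoxa10 4.59 ± 1.38 and Hoxd9 2.87 ± 1.08 FPKM. Levels between 1 and 4 FPKM were also seen for Hoxc4, Hoxb4, Hoxa3, Hoxc5, Hoxb2, Hoxd4, Hoxa4, Hoxb5, Hoxb9 and Hoxa2. All genes of groups 11 to 13 were at 0.374 ± 0.177 FPKM (Hoxa11) or less. In the Hoxc cluster Hoxc10 had 7.62 ± 2.603 FPKM and its neighbour Hoxc11 0.115 ± 0.0819 FPKM. Hoxc9, between the abundant Hoxc8 and Hoxc10, was listed at 0.105 ± 0.0608 FPKM. Transcripts in Hox clusters overlap, so the split between neighbours is uncertain.

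**Figure D4:**
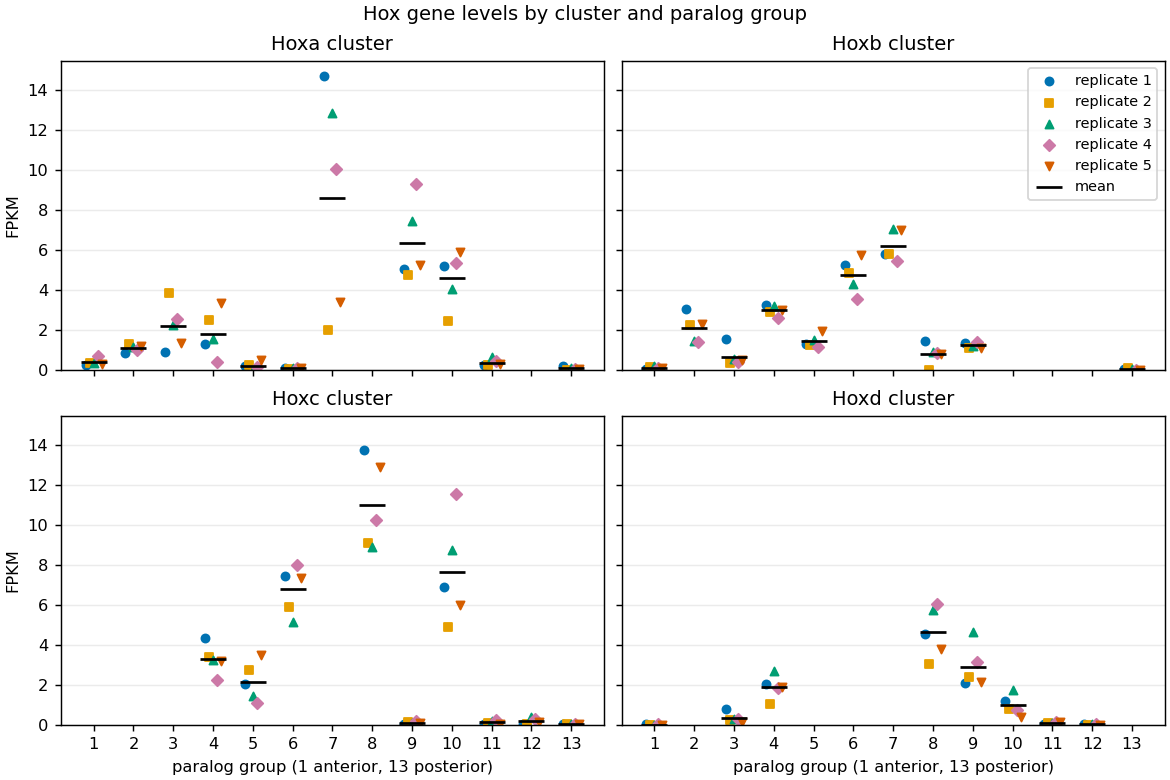
FPKM of the Hox genes of each cluster by paralog group, from 1 (anterior) to 13 (posterior), for each of the 5 libraries (symbols) with the mean (black bar). The highest levels lie in groups 6 to 10, with Hoxc8 highest at a mean of 11.0 FPKM, and groups 11 to 13 lie near 0. Not every gene of groups 6 to 10 is high, as Hoxc9 with a mean of 0.105 FPKM.

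Y chromosome transcripts were present in all 5 libraries, as in male mice. Eif2s3y, a translation factor gene of that chromosome, stood at 16.4, 7.93, 11.1, 16.02 and 3.98 FPKM, while Xist, made from the inactive X chromosome, had 0.0244 ± 0.00852 FPKM. Immediate early genes, which handling of tissue can induce, had a list level of 3.75 ± 0.22, with Fos at 3.88 ± 1.88, Egr1 at 6.07 ± 1.77 and Jund at 88.8 ± 16.4 FPKM. For the circadian clock, Nr1d1 stood at 76.9, 67.9, 72.5, 61.6 and 89.6 FPKM and its partner in opposite phase, Arntl, had 1.59 ± 1.43 FPKM. All 5 libraries had Nr1d1 far above Arntl. The interferon response list had a level of 3.24 ± 0.26, led by Ifi27 with 574 ± 134 FPKM. The list was highest in replicate 4, where Ifi27 itself was lowest.

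Spread between mice was measured as the SD of log2(FPKM + 1) over the 5 libraries. Its median over 14213 genes was 0.28, with quartiles of 0.19 and 0.45. Counting alone would give a median of 0.037 for log2 of the reads, without the added 1, so the scales differ for low genes. An SD above 1 was reached by 648 genes, 4.56 percent. These were 507 protein-coding genes, 94 immunoglobulin segments, 21 pseudogenes, 13 long noncoding RNAs, 5 mitochondrial genes, 4 T cell receptor segments and 4 small RNAs. Immunoglobulin segments had the highest share above 1, with 52.8 percent of 178, followed by mitochondrial genes with 38.5 percent of 13, T cell receptor segments with 13.8 percent of 29 and small RNAs with 12.1 percent of 33. The share was 3.97 percent among the protein-coding genes. Each clone of plasma cells carries its own rearranged segments, and the cause of this spread was not tested. Constant regions also differed between libraries. Ighm, the constant region of IgM, stood at 218, 266, 4.23, 26.6 and 136 FPKM. Ighg2b, of an IgG class, stood at 0.899, 143, 73.5, 264 and 0.967 FPKM. Replicate 2 was high in both, replicates 1 and 5 in Ighm alone and replicates 3 and 4 in Ighg2b alone.

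The protein-coding genes with the largest spread, among those with a mean of at least 10 FPKM, were skeletal muscle genes with 1 exception. Acta1 had an SD of 4.60 and Tnnc2, a fast troponin C, of 4.25, followed by Atp2a1, Mb, Ckm, Myh1, Ckmt2, Tnni2, Myh4, Myh2 and Mylpf. The exception, Rpl17, a ribosomal protein gene, stood at 0.277, 121, 138, 0.234 and 101 FPKM, near 0 in replicates 1 and 4. At the other end, Crot, a peroxisomal carnitine acyltransferase, stood at 19.3, 19.3, 19.2, 19.1 and 18.98 FPKM with an SD of 0.0090. Srp54b, of the signal recognition particle, stood at 20.4, 20.1, 20.2, 20.3 and 20.5 FPKM. Usp14, a proteasome-bound deubiquitinase, stood at 25.9, 25.9, 26.7, 26.1 and 25.6 FPKM. These genes are even on the deposited scale, and after scaling the SD of Crot was 0.17. The other even genes were Kctd3, Hbs1l, Strap, Capn2, Chmp7, Actr10, Anxa7, Gps1 and Ythdf2. Of all genes tested, 738 had an SD below 0.1.

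Spread did not fall steadily with level. Genes between 1 and 3 FPKM had a median SD of 0.31, genes between 30 and 100 FPKM 0.24, and the 33 genes above 1000 FPKM 0.37. Common reference genes were not all even. Hprt, a purine salvage enzyme, stood at 51.2, 49.8, 52.4, 57.1 and 45.7 FPKM. Actb, the cytoskeletal actin, stood at 513, 569, 708, 1377 and 524 FPKM, highest in replicate 4. Ppia, a prolyl isomerase, stood at 261, 518, 247, 536 and 122 FPKM. Gapdh, a glycolytic enzyme with many pseudogene copies, was listed at 6.61, 5.94, 3.92, 7.97 and 60.01 FPKM, far below Aldoa of the same pathway with 1448 ± 582 FPKM. The highest of the 5 values exceeded the lowest by 1.25 times in Hprt and by 15.3 times in Gapdh. Gapdh, Ppia and Actb have processed pseudogenes, so their values are uncertain.

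**Figure D5:**
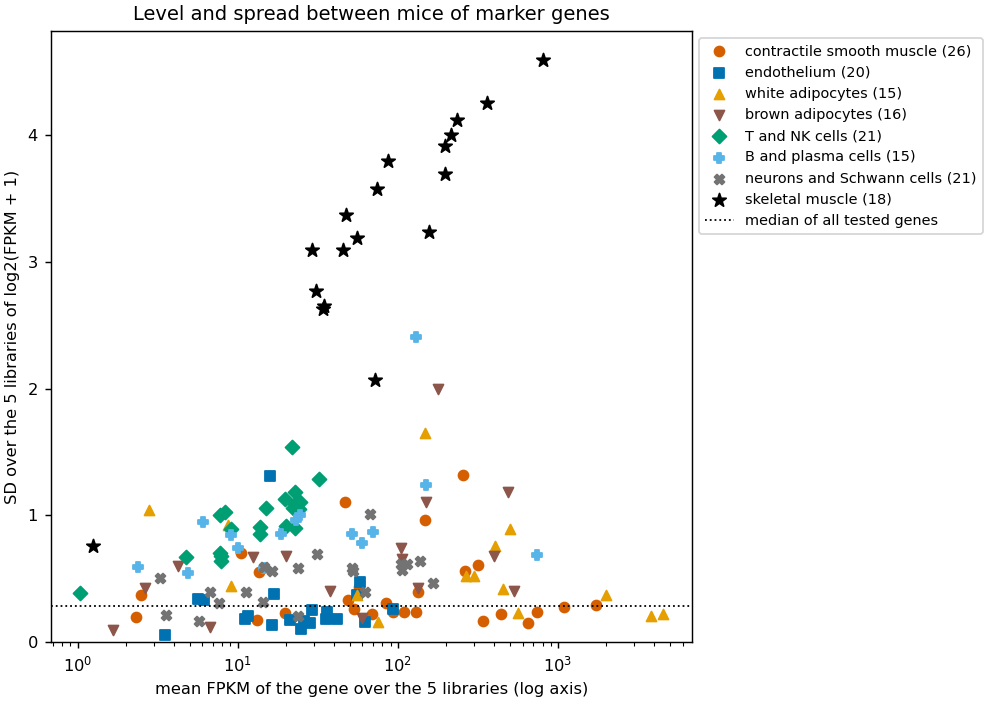
Mean FPKM (log axis) and SD between mice of log2(FPKM + 1) for the genes of 8 marker lists at 1 FPKM or more, 1 symbol per gene, with the number of genes in parentheses. The dotted line is the median SD of all tested genes, 0.28. Skeletal muscle genes reach 4.60, T and NK cell genes lie around 1, and most endothelium genes lie under the line.

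Some of the spread came from isolated values, in 1 or more libraries, far from an otherwise even gene. In 158 genes at least 3 libraries lay within 1.5 times the median and at least 1 lay more than 10 times away, and 107 of these were among the 648. Vcp, an ATPase that extracts proteins from complexes, stood at 131, 0.981, 121, 135 and 131 FPKM. Pcbp1, an RNA-binding protein, stood at 92.999, 90.2, 102, 111 and 0.194 FPKM. Each was near 1 level in 4 mice and near 0 in the remaining one. Stub1, a ubiquitin ligase, showed the reverse, with 0.00804, 0.00839, 57.3, 0.00775 and 0.00787 FPKM and a level only in replicate 3. Replicate 5 was the library farthest from the median in 53 of the 158 genes and replicate 4 in 19. The cause was not tested.

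Replicates 4 and 5 were the least alike pair of libraries. Across genes at 1 FPKM or more the correlation of log2(FPKM + 1) between libraries ran from 0.873, replicates 4 and 5, to 0.945, replicates 1 and 3, with a median of 0.927 over 10 pairs. Genes are not independent replicates, so these values are a description. Of the 648 genes with a wide spread, replicate 5 was the farthest library from the median in 242, 37.3 percent, and each other library in 91 to 112. Replicate 5 also had the highest level of the skeletal muscle list and the lowest levels of the T and NK cell, B and plasma cell and macrophage lists.

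Within protein-coding genes, 92.9 percent of the FPKM lay in protein-coding transcripts, 4.23 percent in transcripts with a retained intron and 1.36 percent in transcripts marked for nonsense-mediated decay. Of 4952 protein-coding genes that averaged 10 FPKM or more over several transcripts, 76.1 percent had the same leading transcript in every library.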

How the data were processed

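Per-library tables of transcript models in FPKM were deposited by the authors for 5 libraries of wild type mice given saline. The genome build mm10 and the tool limma (not used here) are named per the submitters' processing notes, while aligner, assembler and the treatment of reads that fit several places were not given in the sources used here, and the labels give no strand. The unit FPKM was read from the deposited values: multiplied by transcript length, 99.6 percent of low values lay within 0.1 of a whole read. Of 126719 models, 109913 were matched to GENCODE M21 and summed to 42890 genes. The 16637 unannotated models, a mean of 11.9 percent of FPKM, were left out. Overlapping genes and near-identical copies are uncertain.

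Levels are log2(FPKM + 1), and genes from 1 FPKM were used for spread. Members and lists were chosen with earlier results of these data known, and 4 lists after the values were seen. Genes named in the text come from the 30 leading coding genes, mitochondrial genes, up to 6 per other class and 8 per list with members at 0, the 12 most and least spread coding genes from 10 FPKM, up to 6 genes per library farthest above or below the median, detected Hox genes, Rab22a and Agtr1a. Not every gene this rule covers is described, and some are not reported here. Named after seeing their values, mostly as defining markers, were Acan, Adra1d, Adrb3, Agtr1b, Agtr2, Arntl, Cacna1c, Carmn, Cd3e, Cd4, Cd8b1, Cnn1, Col4a1, Col4a2, Des, Egr1, Fgfr1, Fos, Gapdh, Gata6, Hoxa11, Hoxc11, Hoxc9, Hprt, Kcnma1, Kdr, Lep, Lpl, Ly6g, Mas1, Mylk, Myocd, Nkx2-5, Nos2, Pln, Pnmt, Prkg1, Ren1, Smtn, Ttr and Vim. Alternatives covered pseudocount, filter, scaling, transcripts summed, unit, denominator and each library left out. Tools were Python 3.11.15, numpy 2.4.6, pandas 2.3.3, scipy 1.17.1 and matplotlib 3.10.9, tested on simulated data.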

Additional observations from a re-analysis of the deposited data

Results flagged for a closer look

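Each of 115 results was examined for a library that stood apart, that is, whose gap to the nearest other library exceeded 0.71 of the range over the 5 libraries. Chance alone marks about 1 in 20 groups in this way, and 12 results were marked. The protein-coding share of FPKM was lowest in replicate 2 at 76.753 percent, with the next library at 80.189 percent. The level of the pericyte list was highest in replicate 5 at 4.0767, with the next at 3.7234. The white adipocyte list was lowest in replicate 2 at 7.1863, with the next at 7.5845. After trimmed-mean scaling neither list stood apart by this measure, with gaps of 0.6005 of the range for pericytes and 0.3061 for white adipocytes.

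The other 9 are single genes, on the log2(FPKM + 1) scale. Fasn in replicate 3 was lowest at 8.6469, with the next library at 10.837, and Thrsp in the same replicate was lowest at 8.9174, with the next at 10.526. Rab22a was lowest in replicate 4 at 1.935, with the next at 3.258, while Ftl1 was highest there at 11.038, with the next at 10.359. In replicate 2 mt-Nd2 was highest at 8.8635, mt-Atp6 at 10.447 and mt-Co3 at 6.1192, against next values of 4.6931, 1.3147 and 0.95806. In the same library mt-Nd5 was lowest at 0.72603, with the next at 11.292. mt-Nd4 was highest in replicate 1 at 10.738, with the next at 0.23039. After scaling Thrsp, at 0.6324 of the range, and Ftl1, at 0.4608, no longer stood apart, while the other 7 genes did.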

How the results depend on the processing

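No paired analysis was possible because a single group of libraries was described and no test was made. Counted in recovered reads, the protein-coding share was 90.25 percent, the mitochondrial share 5.2766 percent and the share of the 100 most abundant coding genes 22.204 percent. With all transcript models in the denominator the protein-coding share was 70.439 percent. With the examined pseudogenes of the chromosome 1 insertion counted as mitochondrial, the mitochondrial share was 14.226 percent. This alternative was chosen after seeing the data, like leaving out genes with isolated values. Detection at 0.1 FPKM gave 21361 genes, and at 5 FPKM 9011 genes with 8444 coding. A pseudocount of 0.1 gave a median SD of 0.33953, 1283 genes with an SD over 1, a median correlation of 0.89794 and 5 of the 19 marker lists spanning over 2. Without a filter on low values the median SD was 0.12597 and the median correlation 0.9735, and from 5 FPKM the correlation was 0.89137. Quantile normalization gave a median SD of 0.25926 and 1 of the 19 marker lists spanning over 2, and trimmed-mean scaling also 1. Those scaling factors moved log2 levels by -0.12, 0.12, -0.19, -0.08 and 0.26 in replicates 1 to 5.

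Leaving out 1 library at a time gave protein-coding shares of 79.628 to 80.822 percent, mitochondrial shares of 7.3046 to 8.1312 percent and shares of the 100 most abundant genes of 24.749 to 25.79 percent. Acta2 then ranked 7 to 10. Genes at 1 FPKM numbered 14126 to 14300, coding ones 12701 to 12823 and those with an SD over 1 554 to 747. The median SD ran from 0.24387, without replicate 5, to 0.29302 and the median correlation from 0.91508 to 0.93373. Of the 19 marker lists 13 to 14 lay above the median gene, and 1, without replicate 5, to 2 spanned over 2. Of 37 list levels, 20 moved by more than 1 SD with the pseudocount of 0.1. With protein-coding transcripts alone 6 of 36 list levels and 26 of 349 gene means did, and the list of small structural RNAs gave no value. Depth limits low genes most, where counting alone gave a median SD of 0.0797 for log2 of the reads between 1 and 3 FPKM.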

Other observations

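Growth factor and Notch genes, a list of 33 genes added after the values were seen, were present at modest levels, and 32 reached 1 FPKM. Tgfbr2, a receptor of transforming growth factor beta, stood at 54.997, 51.1, 58.6, 66.2 and 39.1 FPKM. Tgfb1, its ligand, stood at 35.5, 26.7, 42.4, 48.96 and 17.8 FPKM. Vegfb, a growth factor of the VEGF family, stood at 36.3, 46.2, 41.6, 36.6 and 66.05 FPKM, highest in replicate 5, while Vegfa had 27.3 ± 6.38 FPKM. Fgfr1, a fibroblast growth factor receptor, stood at 19.5, 17.8, 21.7, 1.31 and 1.65 FPKM and was split, with replicates 4 and 5 far below the others.

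Mast cell and neutrophil genes were both measured at low levels. Mcpt4, a mast cell chymase, stood at 9.76, 10.2, 16.6, 17.96 and 13.04 FPKM. Cpa3, a mast cell carboxypeptidase, had 7.27 ± 1.37 FPKM. S100a8, a calcium-binding protein of neutrophils, stood at 11.4, 18.1, 13.02, 15.2 and 9.06 FPKM. Its partner S100a9 stood at 1.94, 2.46, 0.848, 21.7 and 9.82 FPKM, so that the pair did not keep 1 ratio, and Ly6g, a defining neutrophil marker, had 0.0934 ± 0.103 FPKM.

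Among transcription factors of position and lineage outside the Hox clusters, Hand1 stood at 15.96, 9.86, 8.82, 3.28 and 7.898 FPKM, highest in replicate 1 and lowest in replicate 4, as Hand2 and the noradrenergic genes were. Nkx2-5, a cardiac factor, had 0.0478 ± 0.0457 FPKM.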
